A study of Mus musculus with 5 samples.

Results

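Interferon-stimulated genes are the genes that cells switch on when an interferon binds its receptor, and 42 of them were followed here by name through the conversion of mouse embryonic fibroblasts (MEFs) in a chemically defined medium. The 42 comprise transcription factors of the pathway, sensors of foreign nucleic acid, antiviral effectors, interferon-induced GTPases and members of the ISG15 system, taken from a list of symbols and matched to Ensembl gene identifiers. A row was found for 41 of the 42 among 27729 genes, and the remaining one, Mx2, was not analysed here. A mean of 10 or more expected counts over the 5 libraries was reached by 40 of the 41, against 12130 of all genes, and the exception was Oas3.

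Interferons are secreted proteins that warn cells of infection. Type I interferons bind the receptor pair Ifnar1 and Ifnar2, the kinases Jak1 and Tyk2 phosphorylate STAT proteins such as Stat2, and Stat2 joins Irf9 in a complex that binds the interferon-stimulated response element (ISRE) in promoters of target genes. Interferon gamma acts through Ifngr1 and Ifngr2 and leads to binding of the gamma-activated sequence (GAS). Stat2, Irf9 and Irf7 are themselves induced by the signal, and Usp18 and the SOCS proteins dampen it. Fibroblasts respond to interferons of both classes.

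The MEFs were of the ICR strain and had been kept in DMEM with serum. MEFs are primary cells of mixed embryonic origin. Their medium was then exchanged for the serum-free conversion medium, named 5C by the study and 6C by the sample labels, which contains N2 supplement, bFGF, LIF, vitamin C and 2-mercaptoethanol in DMEM/F12. RNA was taken before the exchange (day 0) and 2, 5, 10 and 14 days into it, with 1 library per time point, and the treatment text of the labels names day 15 where the label of the last library gives day 14. No library of the time course was kept in the first medium beyond day 0, so time in culture and the change of medium cannot be told apart. With 1 library per time point no test was possible, "rose" and "fell" below denote changes over 2-fold in expected counts scaled between libraries (normalized counts), and every interval is an exact 95% interval that covers counting error only. Reads carried no molecular identifiers, so duplicated reads are counted as separate.

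The libraries held between 2253748 (day 2) and 3890334 (day 0) expected counts, so that a count of 0 allowed up to 1.33 counts per 1000000 on day 2 and 0.771 to 0.892 on the other days. In the day 2 library 4.79% of counts came from 1 gene, Gm42418, against 0.0484% to 0.109% elsewhere. All 10 fibroblast markers were detected, with Col1a1 at 13963, 6390, 10542, 16110 and 22717 normalized counts in the 5 libraries by day. Their median log2 change on day 14 was -0.01, with 3 of 10 over 2-fold above day 0 (Col3a1, Pdgfra and Dcn) and 4 over 2-fold below it (S100a4, Twist2, Thy1 and Prrx1). Among the 12130 genes with a mean of 10 or more expected counts, 22.8% were over 2-fold above day 0 on day 14 and 19.7% below it. Of 7 neuron markers, 4 were over 2-fold above day 0 on day 14 and 1, Map2, over 2-fold below it. The 4 were Tubb3, Syp, Nefl and Snap25, the last with a mean below 10 expected counts. Syp went from 0 to 32.5 normalized counts between days 0 and 14 and Snap25 from 0 to 6.27. Nefl had 1.65 on day 0, 72.6 on day 5 and 4.47 on day 14. Rbfox3 was at 0 in every library and Dcx had 1 count on day 0 alone. Map2 went from 196 to 45.6 normalized counts between days 0 and 14 and Tubb3, which encodes the TuJ1 antigen, from 22.1 to 161.

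Promoter windows of RefSeq genes, from 250 bases before to 50 bases after the start of transcription in GRCm38.p6, were available for 31 of the 42 genes and 27025 genes in all. The core of the ISRE, searched on either strand as a pair of GAAA with any 2 bases between them, lay in the windows of 18 of the 31 genes (58.1%) and of 3.99% of all genes with a window. The GAS core, TTCNNNGAA, which reads the same on both strands, lay in the windows of 9 of the 31 (29%) and of 9.55% of all genes. Overlapping matches were counted separately, and a gene with several windows was counted once. Such a match describes letters in a window and does not show that a factor was bound. The stretches below are given for 7 genes that rose on day 10 and 3 that did not on the scale of normalized counts, with the fixed letters of each ISRE core in capitals and read 5′ to 3′ along the gene's strand.

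Ifit1 and Ifit3 carry paired cores, which end 75 and 112 bases before their starts, whereas no core was found in the windows of Ifit2.
Ifit1, chr19:34640775-34640823, plus strand: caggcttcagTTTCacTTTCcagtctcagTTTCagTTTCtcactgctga
Ifit3, chr19:34583363-34583426, plus strand: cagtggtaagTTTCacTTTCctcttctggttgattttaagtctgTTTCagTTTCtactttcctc
The other 5 genes that rose on day 10 are an antiviral enzyme, 3 guanylate-binding proteins and a member of the TRIM family.
Rsad2, chr12:26456553-26456582, minus strand: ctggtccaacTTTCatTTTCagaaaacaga
Gbp2, chr3:142620594-142620623, plus strand: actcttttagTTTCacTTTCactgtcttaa
Gbp3, chr3:142559989-142560024, plus strand: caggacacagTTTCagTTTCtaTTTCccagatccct
Gbp7, chr3:142530273-142530302, plus strand: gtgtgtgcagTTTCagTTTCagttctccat
Trim30a, chr7:104465210-104465239, minus strand: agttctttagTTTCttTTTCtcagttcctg
The last 3 carry overlapping cores and had normalized counts on day 10 within 2-fold of day 0. Of the 3, Bst2 alone stayed within 2-fold on the other scales, since the day 10 log2 changes were 1.76 in TPM and 2.15 after centring by gene length (subtracting the median change of all genes of similar length) for Isg15, and 2.39 and 1.19 for Irgm1.
Isg15, chr4:156200865-156200906, minus strand: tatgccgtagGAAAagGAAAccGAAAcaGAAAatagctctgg
Irgm1, chr11:48871425-48871460, minus strand: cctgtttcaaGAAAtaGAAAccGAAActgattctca
Bst2, chr8:71537577-71537612, minus strand: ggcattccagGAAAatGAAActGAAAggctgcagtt
Of the 18 genes with an ISRE core, 14 rose on day 10 with a median log2 change of 2.27 over the 18. Of the 13 with a window but no core, 12 rose, with a median of 2.30. For the GAS core, 6 of the 9 genes with a match rose, with a median of 1.32. Of the 22 without one, 20 rose, with a median of 2.69. The part of either core in the changes was not tested.

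Most of the genes were higher in every later library than in MEFs. The median log2 change of the 41 genes against day 0 was 1.13, 2.03, 2.53 and 2.19 in the day 2, 5, 10 and 14 libraries, while the median over all 12130 genes kept was -0.06, 0.02, 0.08 and 0.05. The counting intervals of the single genes had, as a median over the 41, lower bounds of 0.33, 1.28, 1.83 and 1.45 and upper bounds of 1.93, 2.97, 3.51 and 2.95. With the 2 genes that had no count on day 0 set at their ratio to 3 counts on day 0, the median was 2.30 on day 10 and 2.04 on day 14. The 4 comparisons share the day 0 library, so they are not independent of each other.

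Of the 40 genes that passed the filter, 22 rose by day 2 (55%), 30 by day 5 (75%), 34 by day 10 (85%) and 32 by day 14 (80%). The background over all genes kept was 13.4%, 18.3%, 26.4% and 22.8% in that order. Falls were seen in 12.6%, 13.4%, 22.7% and 19.7% of all genes on those days and in 1 of the 40, Irgm1 on day 2. In the deposited TPM values, which are divided by gene length and sum to the same total in every library, the share of all genes that rose or fell was 7.57% and 14.6% for day 2, 32.3% and 3.75% for day 5, 52.9% and 6.69% for day 10, then 42.2% and 6.74% for day 14. The TPM scale moved the median change of all genes kept to -0.24, 0.62, 1.09 and 0.80, and the members' medians on it were 0.67, 2.21, 3.26 and 2.53. On that scale 11, 37, 37 and 35 of the 40 were over 2-fold above day 0, so the day 2 count was smaller. All these TPM changes are log2 ratios of TPM + 1, which understates the change of genes near 0. Of the 11 genes that lost the call on day 2, Stat2, Ifitm3, Gbp3 and Ifi35 were within 2-fold without the 1 added as well. Without it, Oas2, Oasl1, Cmpk2, Parp14, Gbp7, Iigp1 and Trim30a were over 2-fold above day 0, all from less than 1.5 TPM on day 0.

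A filter on the mean over all libraries keeps genes that are near 0 on day 0 if they are high later. A stricter choice takes the 29 members that already had at least 10 expected counts in MEFs, of which 12 rose by day 2, 19 by day 5, 23 by day 10 and 22 by day 14. The background among all genes chosen in that way was 9.04%, 11.6%, 19.3% and 16%. The median changes of the 29 were 0.85, 1.60, 2.24 and 1.79.

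**Figure D1:**
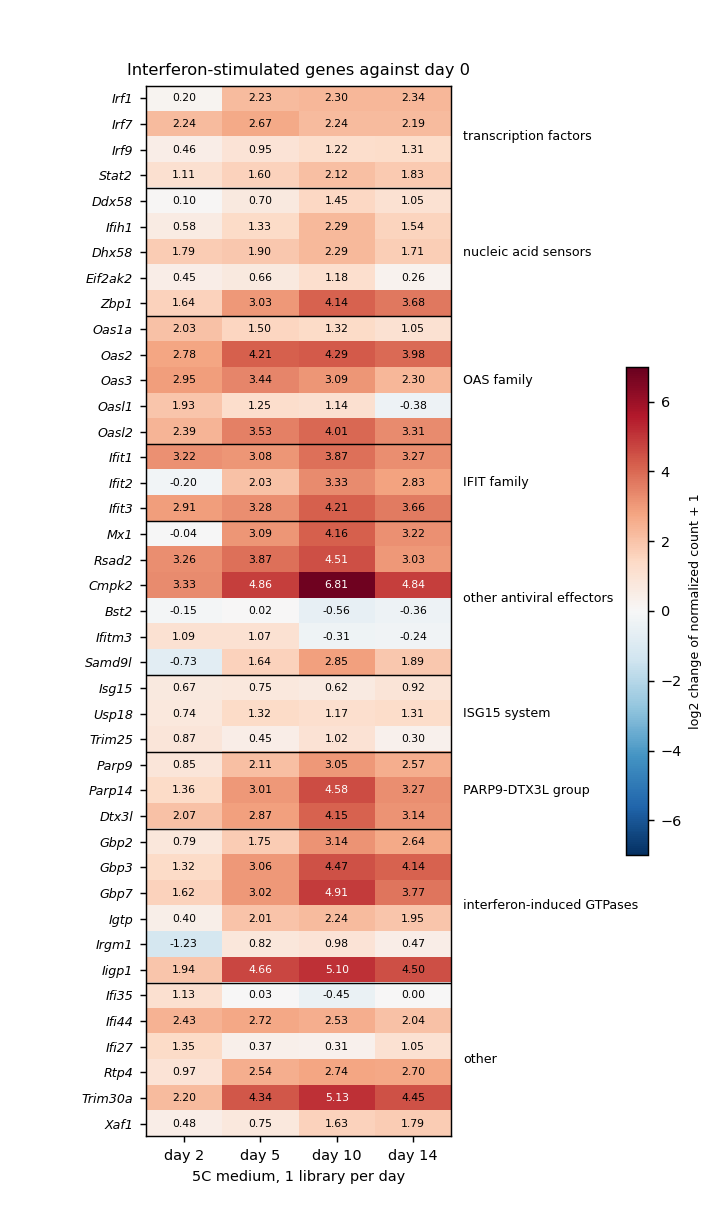
Log2 change of normalized counts + 1 against day 0 for the 41 genes (rows, grouped by role) on days 2, 5, 10 and 14 (columns), 1 library per day. Red cells are above day 0 and blue cells below. On day 10 only Bst2, Ifitm3 and Ifi35 were below 0. All 3 were above 0 after centring by gene length and in TPM, where the median of all genes kept was 1.09. The values of Oas3 and Cmpk2, which had no count on day 0, depend on the 1 count added.

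The rise came in steps. From day 2 to day 5 the median change was 0.60, with 17 of 40 genes over 2-fold up and 1 down, where 17.8% of all genes kept went up and 11.8% down. From day 5 to day 10 it was 0.52, with 10 up and 1 down against 11.3% and 8.62% of all genes. From day 10 to day 14 it was -0.49, with 0 up and 6 down against 3.96% and 6.5% of all genes. The day of the highest normalized count was day 10 for 27 of the 40 genes (26% of all genes kept), day 2 for 5 (21.9%), day 5 for 4 (9.9%), day 14 for 4 (17.4%) and day 0 for 0 (24.8%).

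**Figure D2:**
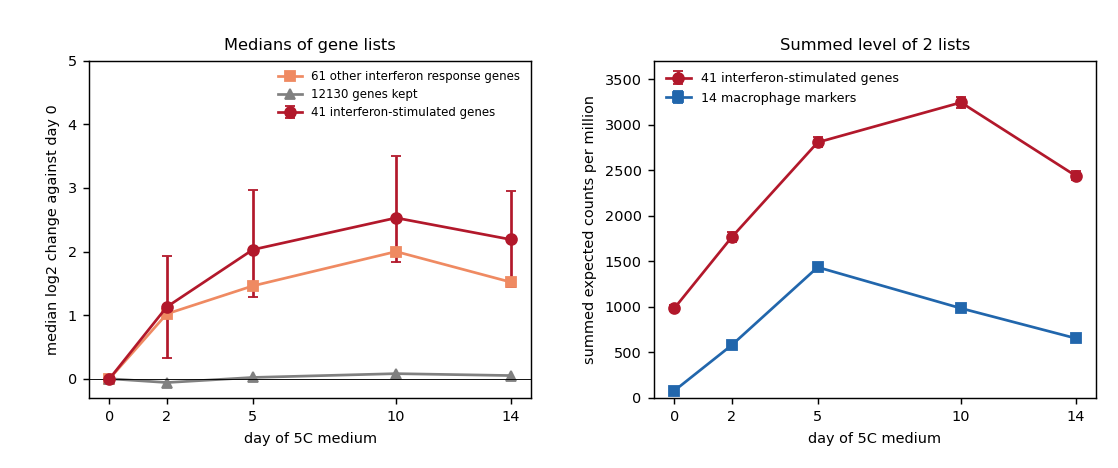
Left, median log2 change against day 0 of the 41 genes (bars run from the median lower to the median upper counting bound), of 61 other interferon response genes and of all 12130 genes kept, by day. Right, summed expected counts per 1000000 of the 41 genes and of 14 macrophage markers with exact Poisson 95% intervals: the genes were highest on day 10 at 3243 and the markers on day 5 at 1434, when Lyz2 alone gave 3129.22 of their 4866 counts. In TPM the sums of the 41 genes on days 5 and 10 were 4272 and 4276. In normalized counts their sums on days 2 and 14 were 7189 and 7331.

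Summed over the 41 genes, expected counts per 1000000 were 984 in MEFs (953 to 1016). They were 1763 (1709 to 1819) by day 2, 2805 (2749 to 2862) by day 5 and 3243 (3186 to 3300) by day 10. The day 14 library gave 2439 (2387 to 2493). The intervals of the 5 libraries do not overlap, but these sums are scaled by library total alone. In normalized counts they were 3788, 7189, 8327, 8997 and 7331 by day, so days 2 and 14 were close. In TPM the sums of days 5 and 10 were 4272 and 4276. Levels of different genes can be set side by side only per length, in TPM. Ifitm3, a membrane protein that hinders viral entry, was the most abundant of the list in every library, with 688 TPM on day 0 and 1225 TPM on day 10. It was followed on day 10 by Bst2 at 426 TPM, Ifi27 at 279 TPM, Isg15 at 271 TPM and Ifit3 at 241 TPM. Ifit3 stood at 5.65 TPM on day 0, where Ifi35 at 48.8 TPM, Xaf1 at 34.7 TPM and Irgm1 at 22.5 TPM were above it. The share of the list's TPM taken by its most abundant gene went from 49.8% on day 0 to 28.6% on day 10.

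**Figure D3:**
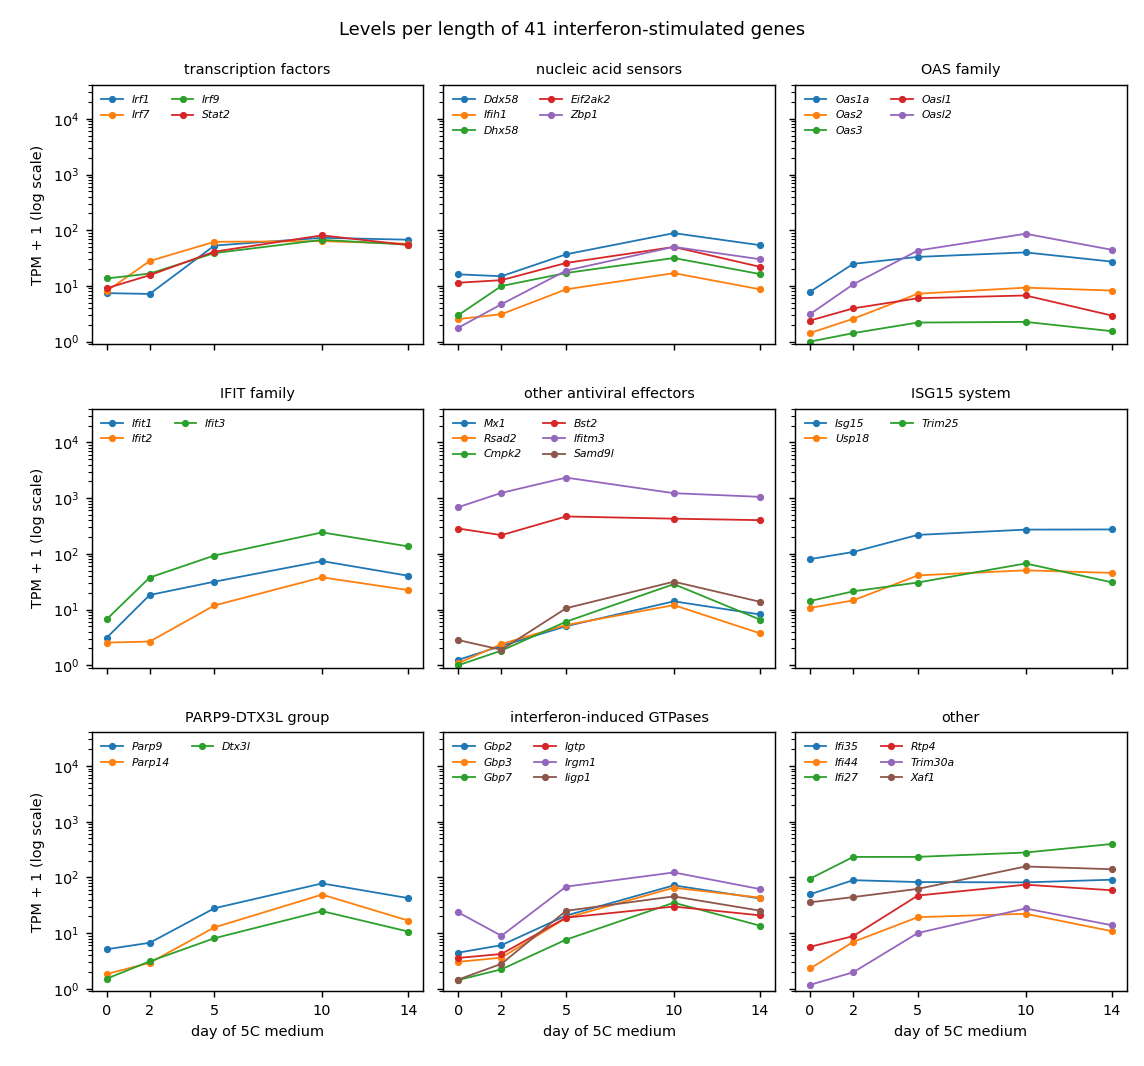
Level per length of each of the 41 genes (TPM + 1, log scale) by day, in 9 panels by role, 1 library per day. Ifitm3 and Bst2 were the highest lines in MEFs, and most other lines started below 50 TPM and reached their top on day 10.

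All 4 transcription factors of the list were over 2-fold above day 0 on days 10 and 14. Irf7, which drives a second wave of interferon genes, had normalized counts of 26.7, 130, 176, 130 and 125 in the 5 libraries by day, the order used for every gene below. It had risen by day 2 (log2 change 2.24, interval 1.63 to 2.98) and was highest on day 5. Irf1, a factor activated by interferon gamma and cytokines, had 37.6, 43.4, 180, 189 and 195, so its rise fell between day 2 and day 5 (log2 change 2.03, 1.44 to 2.73). Stat2, a subunit of the ISRE-binding complex, had 101, 219, 307, 443 and 362, and its log2 change on day 10 was 2.12 (1.83 to 2.45). Irf9, a DNA-binding subunit of that complex, had 86.7, 119, 168, 202 and 217, with a log2 change of 1.31 (0.95 to 1.68) on day 14. Irf9 shares exon sequence with Rnf31 on the same strand, so their reads may have been split between the genes.

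The sensors recognise viral RNA or DNA in the cell. All 5 rose by day 10, with a median log2 change of 2.29, although Eif2ak2 lost the call after centring by gene length, and all 5 were lower on day 14 than on day 10. Zbp1, a sensor of Z-form nucleic acid, had 3.96, 14.5, 39.4, 86.4 and 62.6 normalized counts and the largest change of the 5 (4.14, 3.05 to 6.35 on day 10). The RNA helicase Ddx58 (RIG-I) had 131, 140, 214, 360 and 273, a rise over 2-fold on days 10 (1.45, 1.18 to 1.75) and 14 (1.05, 0.76 to 1.37), the last at 0.77 after centring by length. Its relative Ifih1 (MDA5) had 17.8, 27.1, 46.4, 91.1 and 53.6, and Dhx58 (LGP2), their regulator, had 12.9, 47, 50.6, 67 and 44.5. Both reached a log2 change of 2.29 on day 10. Eif2ak2 (PKR), a kinase that halts translation on binding double-stranded RNA, had 117, 160, 186, 267 and 140. It was above 2-fold on day 10 alone (1.18, 0.89 to 1.50), where centring by length gave 0.55 and TPM 2.13, and TPM put it past 2-fold on day 5 as well (1.18). Its day 14 value of 0.26 (-0.09 to 0.62) was -0.13 after centring by gene length and 0.95 in TPM.

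Most OAS proteins make the messenger that activates RNase L. All 5 listed genes of the family were over 2-fold above day 0 in normalized counts on day 2, with a median log2 change of 2.39. On the TPM + 1 scale Oas1a (1.66) and Oasl2 (1.77) kept that call on day 2, while Oas2 (0.85), Oas3 (0.51) and Oasl1 (0.72) did not. Oasl2 had 18.8, 103, 228, 318 and 196 normalized counts and reached a log2 change of 4.01 (3.42 to 4.83) on day 10. Oas1a had 36.6, 153, 105, 92.7 and 76.6 and was highest on day 2 (2.03, 1.48 to 2.65). Its expected count was not whole in any library, since reads were shared with near-identical relatives, so its own level is uncertain. Oas2 had 1, 7, 41, 53 and 34 expected counts and Oasl1 had 5, 12, 15, 16.99 and 4. The log2 change of Oas2 on day 10 was 4.29, with an interval of 2.72 to 10.59 that its single count on day 0 leaves wide, and on the TPM + 1 scale it was 2.70. Oas3 had no count on day 0 and 3.73, 11.27, 10.55 and 4.4 afterwards. Its day 5 value was 3.32-fold the floor of 3 counts in the day 0 library, and the lower counting bound of its log2 change was 1.15. The day 14 value of Oasl1 was -0.38 (-2.80 to 1.75), -0.13 after centring by length and 0.30 in TPM.

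The 3 IFIT genes, whose proteins bind viral RNA, lie next to each other at chr19:34550694-34650009 and differed on day 2. Ifit3 had 27.9, 216, 279, 531 and 363 normalized counts, and its log2 change was 2.91 (2.35 to 3.61) on day 2 and 4.21 (3.72 to 4.86) on day 10. Ifit1 had 15.8, 156, 141, 245 and 162, with 3.22 (2.52 to 4.17) on day 2. Ifit2 had 16.8, 14.5, 71.8, 178 and 126, at -0.20 (-1.64 to 1.07) on day 2, where TPM gave 0.06, but at 3.33 (2.69 to 4.20) by day 10. The day 2 intervals of Ifit1 and Ifit3 lie wholly above that of Ifit2. The counts of Ifit3 were not whole in any library, since a near-identical copy takes part of its reads, and those of Ifit2 were whole in all 5.

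The antiviral effectors fell into those near 0 in MEFs and those already abundant. Cmpk2, a mitochondrial nucleotide kinase, and Rsad2 (viperin), which makes an antiviral nucleotide, are neighbours at chr12:26442746-26479837. Cmpk2 had 0, 5, 32, 156 and 31 expected counts. Its day 10 value was 37.5-fold the floor of 3 counts on day 0, and the lower counting bound of its log2 change was 4.91. Rsad2 had 1, 10, 32, 62 and 17, a log2 change of 4.51 (2.95 to 10.81) on day 10. Both were highest on day 10 and over 2-fold lower on day 14. Mx1, a dynamin-like GTPase, had 1.91, 1, 27, 70.99 and 29 expected counts, and its day 10 change was 4.16 (2.77 to 7.75). Samd9l, which restrains translation, had 27.7, 16.3, 88.4, 206 and 105 normalized counts, below day 0 on day 2 (-0.73, -2.04 to 0.36) and over 2-fold above it from day 5 (2.85, 2.33 to 3.51 on day 10).

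Bst2 (tetherin), which holds budding virus on the cell, had 600, 539, 610, 408 and 467 normalized counts and Ifitm3 had 1280, 2722, 2688, 1036 and 1083. Ifitm3 was over 2-fold above day 0 on day 2 (1.09, 0.98 to 1.20) and day 5 (1.07, 0.98 to 1.16), and within 2-fold of it afterwards, and its day 2 value was 0.85 in TPM and 0.87 after centring by length. On day 10 the log2 change of Bst2 was -0.56 (-0.72 to -0.39), but 0.59 in TPM and 0.98 after centring by gene length. For Ifitm3 it was -0.31 (-0.41 to -0.20), but 0.83 in TPM and 1.23 after centring. On day 14 the values of Bst2 were -0.36, 0.50 and 0.75 and those of Ifitm3 -0.24, 0.61 and 0.87 on the 3 scales in that order. The sign of these genes late in the course therefore depends on the scale. The median of all genes kept was 0.08 and 0.05 in normalized counts and 1.09 and 0.80 in TPM on days 10 and 14. Both genes lay below these medians and above the median of their length class.

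Isg15 is a ubiquitin-like protein that is attached to other proteins, Usp18 removes it and also blocks the interferon receptor, and Trim25 is a ubiquitin ligase that activates RIG-I. The changes of this system were larger in TPM, where all 3 were over 2-fold above day 0 on day 10 (1.76 for Isg15 and 2.24 for Usp18 and for Trim25), than in normalized counts. The same held for all genes kept on day 10. In TPM 52.9% of them were over 2-fold above day 0, with a median of 1.09, against 26.4% and 0.08 in normalized counts. Isg15 had 166, 264, 281, 256 and 315 normalized counts and stayed within 2-fold of day 0 on that scale, with its top value of 0.92 (0.65 to 1.19) on day 14, against 1.77 in TPM and 2.03 after centring by length. Usp18 had 48.5, 81.4, 123, 111 and 122 and was over 2-fold above day 0 from day 5 (1.32, 0.86 to 1.84). Trim25 had 210, 385, 287, 428 and 258. Its day 10 change of 1.02 (0.80 to 1.26) lay just past 2-fold but was 0.26 after centring by length, and its day 14 change of 0.30 (0.04 to 0.56) was -0.16 after centring by length and 1.11 in TPM.

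Parp9 and Dtx3l form a complex of a PARP family protein and a ubiquitin ligase, Parp14 is an ADP-ribosyltransferase, and all 3 genes lie at chr16:35832874-35972605. They rose together, with a median log2 change of 2.87 on day 5 and 4.15 on day 10. Parp14 had 17.8, 47.3, 151, 450 and 180 normalized counts and the largest change of the 3 (4.58, 3.99 to 5.42 on day 10). Parp9 had 31.7, 57.9, 140, 269 and 193 (3.05, 2.57 to 3.66) and Dtx3l had 7.92, 36.5, 64, 157 and 77.8 (4.15, 3.31 to 5.54). Exons of Parp9 and Dtx3l overlap on opposite strands, and the counting was not stated to use strand, so reads of the overlap cannot be assigned to either.

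The GTPases attack the vacuoles of parasites and bacteria inside the cell, and most respond strongly to interferon gamma. Of the 6 genes, 5 had risen by day 5 and were still above 2-fold on days 10 and 14. The guanylate-binding proteins Gbp7, Gbp3 and Gbp2 lie together at chr3:142530342-142638008. Gbp7 had 6.99, 23.5, 63.9, 239 and 108 normalized counts and a log2 change of 4.91 (4.05 to 6.44) on day 10. Gbp3 had 8.85, 23.5, 81.4, 217 and 173 (4.47, 3.66 to 5.75) and Gbp2 had 24.7, 43.4, 85.8, 226 and 159 (3.14, 2.60 to 3.84). All 3 more than doubled again between day 5 and day 10, by 1.89 (1.54 to 2.29), 1.41 (1.08 to 1.77) and 1.39 (1.06 to 1.74).

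Among the immunity-related GTPases, Iigp1 had 3.96, 18.1, 124, 170 and 112 normalized counts, so that most of its rise was reached by day 5 (4.66, 3.58 to 6.87) rather than after it. Igtp had 14.8, 19.9, 62.9, 74 and 60.4, with a log2 change of 2.24 (1.53 to 3.21) on day 10, and shares exon sequence with Irgm2 on the same strand. Irgm1, a regulator of the family, had 144, 61.1, 255, 286 and 200. It was the only gene of the list that fell below day 0 by over 2-fold, by 1.23 on the log2 scale on day 2 (interval -1.82 to -0.69), and it was at 0.98 (0.71 to 1.27) on day 10, just short of 2-fold, with 2.39 in TPM and 1.19 after centring by length. Its counts were not whole in any of the 5 libraries.

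The last 6 genes have mixed or less defined roles. Trim30a, a TRIM protein of mice, had 2, 7, 67.75, 145.13 and 71.79 expected counts and a log2 change of 5.13 (3.83 to 8.77) on day 10. Ifi44 had 9.9, 57.9, 70.9, 62.1 and 43.8 normalized counts and had risen by day 2 (2.43, 1.49 to 3.74). Rtp4, a chaperone of receptors, had 20.8, 41.6, 126, 145 and 140 and rose by day 5 (2.54, 1.93 to 3.34). Xaf1, a protein that favours apoptosis, had 83.9, 118, 142, 262 and 293 and was highest on day 14 (1.79, 1.45 to 2.16). Ifi27, a mitochondrial protein, had 236, 602, 305, 292 and 489, over 2-fold above day 0 on days 2 (1.35, 1.11 to 1.60) and 14 (1.05, 0.83 to 1.28) and within 2-fold between them, where its day 10 value of 0.31 was 1.56 in TPM and 1.84 after centring by length. Ifi35 had 184, 403, 188, 134 and 184, above 2-fold on day 2 alone (1.13, 0.84 to 1.42, or 0.84 in TPM), and its day 10 value of -0.45 (-0.76 to -0.16) was 0.71 in TPM and 0.44 after centring by length.

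Between days 10 and 14, 32 of the 41 genes went down and 9 went up. The interval lay below 0 for 25 genes and above 0 for 4. Their median change was -0.49, against 0.04 over all genes kept, and the share of all genes that went down or up was not counted. The 6 that fell over 2-fold were Cmpk2 (-1.97, -2.61 to -1.44), Oasl1 (-1.52, -3.79 to -0.15), Rsad2 (-1.48, -2.41 to -0.75), Parp14 (-1.31, -1.55 to -1.09), Gbp7 (-1.14, -1.46 to -0.84) and Dtx3l, the last at the threshold itself (-1.39 to -0.65). All 6 had been above 2-fold on day 10. Their changes against day 0 were also centred by gene length on days 10 and 14. Parp14 (3.55 and 2.71), Gbp7 (3.87 and 3.22) and Dtx3l (3.38 and 2.69) were then less than 2-fold lower. Cmpk2 (6.38 and 4.56), Oasl1 (1.61 and -0.13) and Rsad2 (3.88 and 2.63) remained over 2-fold lower. The members' median on that scale was 2.50 on day 10 and 2.34 on day 14. The 4 with an interval above 0 were Ifi27 (0.74), Ifi35 (0.46), Isg15 (0.29) and Bst2 (0.20), whose mRNAs are among the shortest of the list. After centring by gene length, the changes against day 0 on days 10 and 14 were 1.84 and 2.16 for Ifi27 and 0.44 and 0.55 for Ifi35, but 2.15 and 2.03 for Isg15 and 0.98 and 0.75 for Bst2, so the last pair turned in direction.

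**Figure D4:**
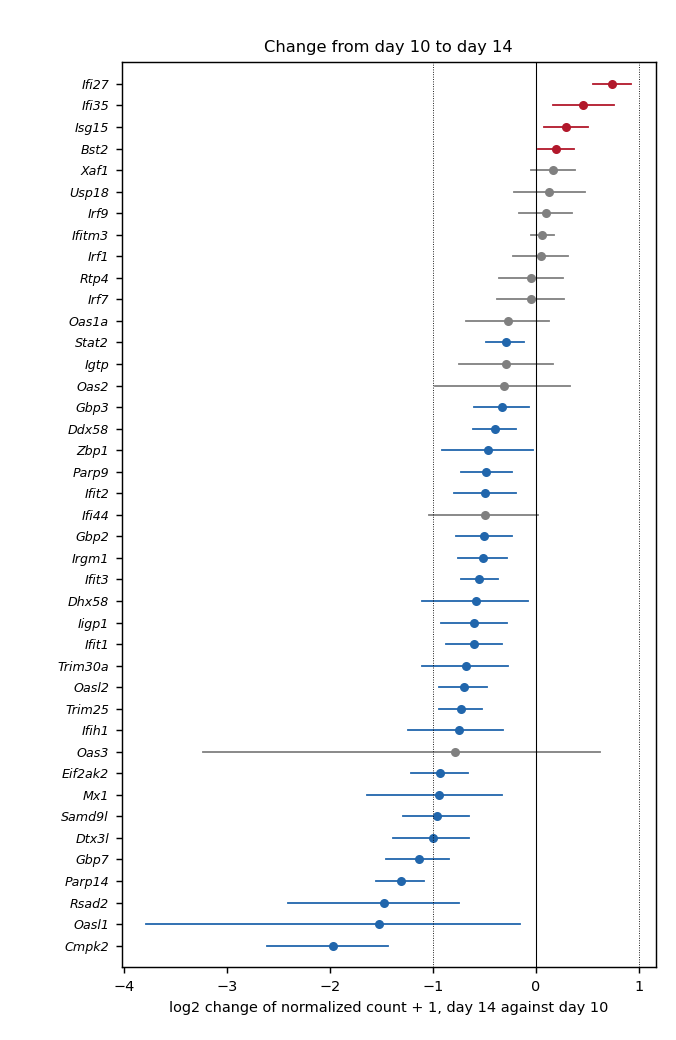
Log2 change from day 10 to day 14 of the 41 genes with exact 95% counting intervals (lines), 1 library per day. Blue genes (25) have an interval below 0, red genes (4) above 0 and grey genes include 0, and the dotted lines mark 2-fold. The median change over all genes kept was 0.04. Isg15 and Bst2 were lower on day 14 than on day 10 after centring by gene length. Parp14, Gbp7 and Dtx3l were less than 2-fold lower on that scale.

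Gene length moved with the change in all genes, and this bears on the short members. With the genes kept divided into 10 classes by length, the median log2 change on day 10 ran from -1.53 in the shortest class (186 to 1063 bases) to 1.04 in the longest (5521 to 84395 bases). Bst2, Ifi27, Ifitm3 and Isg15 are the members under 1000 bases, with a median length of 760 bases, and their median change on days 2, 5, 10 and 14 was 0.88, 0.56, 0.00 and 0.34. The 36 longer genes that passed the filter had a median length of 2576 bases and medians of 1.22, 2.17, 2.80 and 2.46. Their length was near the 2557 bases of all genes kept. When each change was centred on the median of all genes in its length class, the members' median was 1.13, 2.00, 2.50 and 2.34. Then 22, 33, 36 and 32 of 40 were over 2-fold above day 0, against 14.7%, 17.1%, 22% and 21% of all genes kept.

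**Figure D5:**
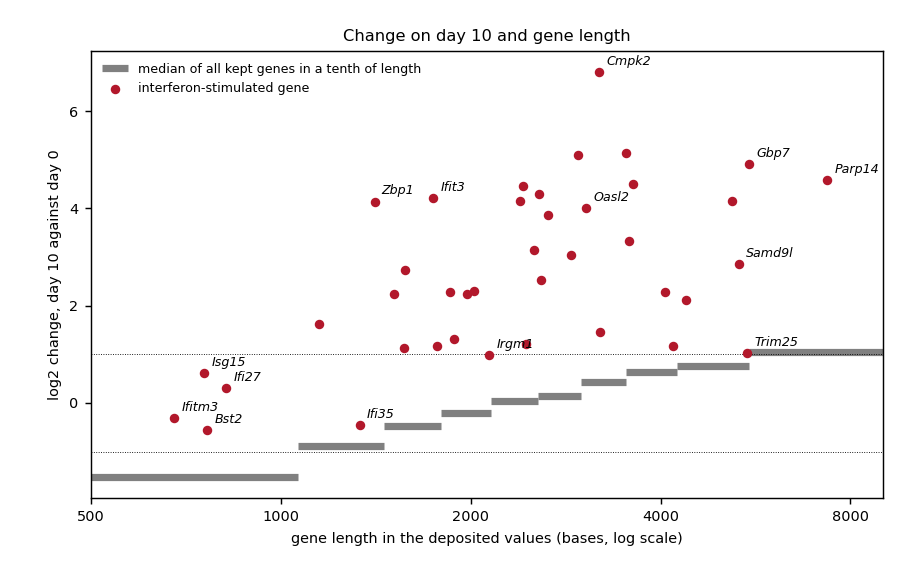
Log2 change on day 10 against gene length in bases (log scale) for the 40 genes that passed the filter (red points). Grey bars are the medians of all kept genes in each of 10 length classes, with the outer bars cut at the edges of the plot, and dotted lines mark 2-fold. All 40 points lie above the bar of their class, the nearest being Trim25 at 0.26 above it.

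The ligands themselves were hardly detected. Of 11 interferon genes looked up, Ifnb1, Ifng, Ifna1, Ifna2, Ifna4, Ifna5, Ifne, Ifnk, Ifnl2 and Ifnl3 were at 0 in all 5 libraries, which allows up to 0.771 to 1.33 counts per 1000000 in a library. Ifnz had 6.45, 1.78, 3.11, 5.15 and 0 expected counts. Levels below this floor were not detectable at this depth.

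Most receptor subunits stayed within 2-fold of day 0 on the scale of normalized counts. Ifnar1 had 165, 147, 234, 299 and 290 normalized counts (0.86, 0.60 to 1.13 on day 10) and Ifnar2 had 127, 127, 178, 167 and 202 (0.67, 0.35 to 1.00 on day 14). Ifngr1 had 160, 112, 149, 136 and 149, and Ifngr2 had 170, 197, 317, 194 and 178. All 4 stayed within 2-fold in normalized counts in every later library. In TPM, Ifnar1 went from 17.84 on day 0 to 65.92 on day 10, Ifnar2 from 31.49 to 98.83 on day 14 and Ifngr2 from 18.41 to 56.11 on day 5. Ifngr1 went from 26.8 to 51.68 TPM on day 10. The TPM medians of all genes kept were 0.62, 1.09 and 0.80 on days 5, 10 and 14. Il10rb, a shared subunit of the receptors of interferon lambda and interleukin-10, had 77, 52.5, 111, 141 and 164 normalized counts and was at 1.08 (0.69 to 1.48) on day 14. Ifnlr1, the other subunit of the lambda receptor, had 0, 1, 7, 4 and 1 expected counts. Its day 5 value was 2.06-fold the day 0 floor, and the lower counting bound of its log2 change was 0.35.

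Of 10 genes of JAK-STAT signalling and its feedback, 2 rose by day 2, 5 by day 5, 6 by day 10 and 8 by day 14, and none fell. The background over all genes kept, given above, was 13.4%, 18.3%, 26.4% and 22.8%. Jak1 had 477, 373, 904, 1322 and 1551 (1.70, 1.55 to 1.85 on day 14) and Jak2 had 42.6, 70.6, 147, 227 and 170 (2.39, 1.95 to 2.91 on day 10). Tyk2 had 65.3, 88.6, 102, 91.4 and 146, over 2-fold above day 0 on day 14 alone (1.15, 0.74 to 1.59). The feedback inhibitor Socs3 had 42.6, 183, 544, 405 and 1023 and was at 4.56 (4.15 to 5.06) on day 14, while Socs1 had 11.9, 19.9, 28.9, 22.1 and 37.5. Stat3, the factor that carries the signal of LIF, had 372, 363, 679, 1005 and 764 (1.43, 1.27 to 1.60 on day 10).

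Among 14 genes of innate sensing and interferon induction, 5, 6, 5 and 3 were over 2-fold above day 0 on the 4 later days. None was over 2-fold below it. The background over all genes kept was 13.4%, 18.3%, 26.4% and 22.8%, so the 3 of 14 on day 14 are a smaller share. Of the 14, 12 passed the filter, and Tlr7 and Tlr9, which did not, are among the calls. Tlr3, a receptor of double-stranded RNA, had 4.95, 18.1, 33.3, 71.4 and 23.2 normalized counts (3.61, 2.58 to 5.51 on day 10). Ikbke, an IRF kinase, had 47.5, 295, 186, 152 and 131, highest on day 2 (2.61, 2.16 to 3.13). Tmem173 (STING) had 93, 273, 355, 126 and 146, highest on day 5 (1.92, 1.61 to 2.27). Irf3, the factor that starts interferon production, had 189, 344, 188, 131 and 247 and stayed within 2-fold in normalized counts. In TPM it went from 47.72 on day 0 to 136.57 on day 14. Of the other IRF factors, Irf2 had 35.6, 21.7, 80.5, 110 and 76.9 (1.60, 1.09 to 2.19 on day 10).

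A further 64 interferon response genes outside the 42 gave 61 with a row. Their median log2 change was 1.02, 1.46, 2.00 and 1.52, with 31, 44, 41 and 42 of the 61 over 2-fold above day 0 and 3, 1, 3 and 4 below it. The background of genes above day 0 was again 13.4%, 18.3%, 26.4% and 22.8% over genes that passed the filter, as 53 of the 61 did. Over all genes without a filter it was 12.7%, 13%, 18.1% and 15.1%. The count of the 61 above day 0 was highest on day 5 and their median on day 10. Gbp9 had 1, 4.01, 34.41, 199.7 and 22.11 expected counts (6.17, 4.68 to 12.48 on day 10) and Slfn9 had 1, 1.06, 31.7, 111.22 and 22.85 (5.34, 3.82 to 11.64). Slfn5 had 0, 2.98, 22.03, 138.74 and 41.94. Its day 10 value was 33.4-fold the day 0 floor, and the lower counting bound of its log2 change was 4.75. From day 10 to day 14, 40 of the 61 were lower and 20 higher, with a median of -0.35. Over all genes kept the median was 0.04, and the share that was lower or higher was not counted.

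Markers of macrophages also moved with the days. All 14 markers had a row and 12 passed the filter. On the 4 later days 14, 13, 12 and 12 of them were over 2-fold above day 0, as were 13.4%, 18.3%, 26.4% and 22.8% of all genes kept. Their summed levels were 78.5, 578, 1434, 983 and 654 expected counts per 1000000 by day. Lyz2, a lysozyme of myeloid cells, had 108, 1177, 2738, 1407 and 974 normalized counts. Adgre1, which encodes F4/80, had 2.97, 14.5, 62.1, 72.6 and 35.8, and Cd5l had 0, 7, 255.99, 539 and 373 expected counts. Ptprc, the general leukocyte marker, had 0, 1, 8, 22 and 4 expected counts, and Itgam had 61.9, 177, 17.6, 6.81 and 7.2 normalized counts, over 2-fold below day 0 from day 5. The summed markers were highest on day 5, when Lyz2 gave 3129.22 of their 4866 expected counts, and single markers peaked on day 2 (4 of 14), day 5 (5, among them Cd68 and Mpeg1) or day 10 (5, which were Adgre1, Mrc1, Cd14, Ptprc and Cd5l). Cd5l and Ptprc were at 0 on day 0. The part of these markers in the changes of the interferon-stimulated genes was not tested, and in such bulk samples more cells of a type and more RNA per cell cannot be told apart.

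Defining markers of other blood cells were mostly at or near 0. Of 6 plasmacytoid dendritic cell markers, Siglech, Ccr9 and Ly6d had at most 1 expected count in a library and Irf8 between 1 and 26. Tcf4, which other cells also express, had 176, 476, 392, 751 and 678 normalized counts, and Bst2 is itself one of the 42. Of 8 T and NK cell markers, 4 were at 0 in every library and the 8 summed to 2, 0, 6, 10 and 45 expected counts, of which Gzmb gave 0, 0, 1, 0 and 38. Of 7 Schwann and neural crest markers, 4, 6, 7 and 7 were over 2-fold above day 0 on the 4 later days. The share of all genes kept was 13.4%, 18.3%, 26.4% and 22.8%. Summed normalized counts of the 7 were 75.9, 170, 830, 4606 and 5903 by day. Of 5 endothelial markers, Kdr went from 236 to 3.58 and Emcn from 34.6 to 3.58 normalized counts between days 0 and 14, while Pecam1, Cdh5 and Tek had at most 13 expected counts in a library. The part of these cell types in the changes was not tested.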

How the data were processed

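RNA-seq covered MEFs (day 0) and cells 2, 5, 10 and 14 days into the 5C medium, each time point as a single library assigned by its label. The authors deposited expected counts per gene, which RSEM estimates without scaling for depth, beside TPM values, divided by gene length and scaled to 1000000 per library, and FPKM values, divided by length and by reads. The FPKM values deposited were not used. Bowtie, RSEM and mm10 are named in the submitters' processing notes, and versions and annotation are not given in the sources used here. Symbols came from GENCODE M21 for 27247 of 27729 genes, and the other 482 held 0.359% of counts.

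Expected counts, rounded for this step, gave TMM factors in edgeR 4.0.16 (R 4.3.3), and the unrounded values were divided by effective library sizes relative to their geometric mean (normalized counts). Changes are log2 ratios of normalized counts + 1, which understates the change of low genes. Intervals are Clopper-Pearson for ratios and exact Poisson for sums at 95%. Genes with a mean of 10 or more expected counts were kept, and 3 counts served as the floor of a library at 0. An expected count was taken as not whole beyond 0.005 of a whole number, which applied to 30 of the 41 genes in at least 1 library. Alternatives were DESeq2 1.42.0 size factors, TMM without Gm42418 and Lars2, TPM + 1, centring within 10 length classes, a pseudocount of 5, a 4-fold threshold, a required interval and other filters. The steps were tested on simulated counts. Other steps ran in Python 3.11.15 with pandas 2.3.3, numpy 2.4.6 and scipy 1.17.1, and plots were drawn with matplotlib 3.10.9.

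The 42 genes, the other gene lists and the motifs were chosen with earlier results of these data known. Members with 100 or more expected counts in a library were named with their values, and up to 10 of the others. Of each context list the 3 genes with the largest change among those with 100 or more counts were named, together with the interferons, Ifnar1, Ifnar2, Ifngr1, Ifngr2, Jak1, Tyk2, Stat3, Irf3, Socs1 and Socs3 whatever their values, and some genes that this rule names are not reported here. Macrophage, fibroblast and other marker genes are named as examples of their lists.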

Additional observations from a re-analysis of the deposited data

How the results depend on the processing

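The median changes of the 41 genes stayed above 0 on every later day under each alternative. On day 2 the count of genes over 2-fold above day 0, 22 of 40, was 11 in TPM (7.57% of all genes), 11 with a 4-fold threshold (4.47%) and 12 of 29 with 10 or more counts on day 0 (9.04%), and the 1 gene over 2-fold below became 0 at 4-fold. On day 5 the 30 of 40 became 19 of 29 with 10 or more counts on day 0, a filter added after seeing the data that by its construction tests fewer genes. On day 14 the 32 of 40 became 21 at 4-fold (10.5%). For single genes, DESeq2 size factors and TMM without Gm42418 and Lars2 kept all 164 values within their counting intervals, scaling without the day 2 library, an alternative added after seeing the data, kept 123 of 123, a pseudocount of 5 moved 3, TPM moved 60 and centring by length moved 30 of 164. Beside the genes whose sign turned with the scale in the text above, the small day 2 changes of Irf1 (0.20, or -0.05 in TPM), Ddx58 (0.10, or -0.11) and Mx1 (-0.04, or 0.83) turned in TPM. Over the 11 genes with whole counts in all libraries, also added after seeing the data, the medians were 1.11, 2.54, 2.85 and 2.70. No paired analysis was possible because each time point has 1 library and the labels carry no replicate numbers, and leaving out a replicate would leave no library for its day. Low counts on day 0, 1 or 2 in Oas2, Rsad2, Mx1 and Trim30a, limit the precision of their changes.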
